A study of Homo sapiens with 9 samples.

Results

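HMEC-1 cells after 48H of TMAO were compared directly with HMEC-1 cells after 24H of TMAO. The comparison used the 6 TMAO libraries of the 9 in the series, 3 per time-point, chosen by their labels, and every gene that passed an expression filter entered the test (14559 of the 29740 genes counted). HMEC-1 is a human dermal microvascular endothelial line immortalised with the SV40 large T antigen. All cells came from this single line. TMAO (trimethylamine N-oxide) is made when gut bacteria release trimethylamine from choline and carnitine and the liver oxidises it, and its blood level has been linked to cardiovascular disease. The treated groups received 50 µM TMAO for 24H or for 48H in medium with reduced serum. The other 3 libraries of the series are untreated controls. They carry no time label, the study pooled the controls of both time-points, and they did not enter the fit. A difference between 48H and 24H can therefore come from the longer exposure to TMAO or from the extra day in culture, and these cannot be told apart.

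Endothelial cells line vessels and build much of the sheet they sit on. They secrete collagens, laminins, nidogens and fibronectin, shape them with cross-linking enzymes and matrix metalloproteinases, and store growth factors such as TGF-beta in them. They also answer outside signals in layers. Growth factors, serum and mechanical load switch on immediate early genes within minutes, cytokines act through NF-kB on adhesion molecules and chemokines, and interferons act through STAT and IRF factors on a large set of antiviral genes. The gene lists below follow these layers.

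RNA sequencing gave 25205753 to 36927364 counts per TMAO library. Levels are given as CPM, the count of a gene relative to the library total after adjustment by the TMM method, so they compare libraries for the same gene and not different genes. A pair of libraries stood apart. Nuclear ribosomal RNA (5 genes) took 30.7% of the counts of TMAO 24H replicate 1 and 1.67% to 4.35% of those of the remaining TMAO libraries, and its level of RN7SK, a small nuclear RNA without a poly(A) tail, was 818 CPM against 9.05 to 18.3 CPM. In TMAO 48H replicate 3, the keratinocyte gene KRT5 was at 4.12 CPM against 25.1 to 53.6 CPM in the other 8 libraries, and EPCAM at 1.25 CPM against 6.64 to 9.53 CPM, all on a scale set over the 9 libraries. Both genes were chosen after their values were seen. Their part in the results was not tested beyond leaving each out, and the larger moves in the list counts of genes that rose or fell without the first are given beside the result. Of 20 endothelial markers all 20 were detected well enough to be tested, from CLDN5 at 1.18 to 1.82 CPM to CDH5 (VE-cadherin) at 544 to 668 CPM. The defining leukocyte marker PTPRC had at most 3 counts in any of the 6 libraries and the fibroblast markers DCN and LUM at most 2. Other members of the same lists were detected. The leukocyte markers CD68 and CD14 were at 19.9 to 21.5 CPM and 0.764 to 1.3 CPM. The fibroblast markers COL1A1 and COL3A1 were at 399 to 660 CPM and 27.7 to 30.8 CPM.

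The test called 119 genes higher at 48H than at 24H and 116 genes lower, a gene being called when its adjusted p was under 0.05 and its change at least 1.4-fold. These were 0.817% and 0.797% of the genes tested, together 1.61%. Without a fold limit, 486 genes rose (3.34%) and 575 fell (3.95%), in all 7.29%, and these words are used below for an adjusted p under 0.05 at any fold. Leaving out TMAO 24H replicate 1 cut these to 263 and 286 genes. Such a drop was not particular to that library. The called genes numbered 183 without it, 179 without TMAO 24H replicate 2 and 161 without TMAO 24H replicate 3. They numbered 240, 171 and 255 without TMAO 48H replicate 1, replicate 2 and replicate 3. The list counts below without TMAO 24H replicate 1 therefore also carry the loss of a replicate. The 3 libraries of one time-point lay wholly above the 3 of the other for 4030 genes (27.7%) and for all 235 called genes. Most calls were modest. The median log2 fold change was 0.74 among genes called higher and -0.67 among those called lower, and 29 genes were more than 2-fold higher and 23 more than 2-fold lower. The labels do not say whether the 3 libraries of a group came from separate cultures, so the p-values measure the spread between these libraries, which may be technical.

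**Figure D1:**
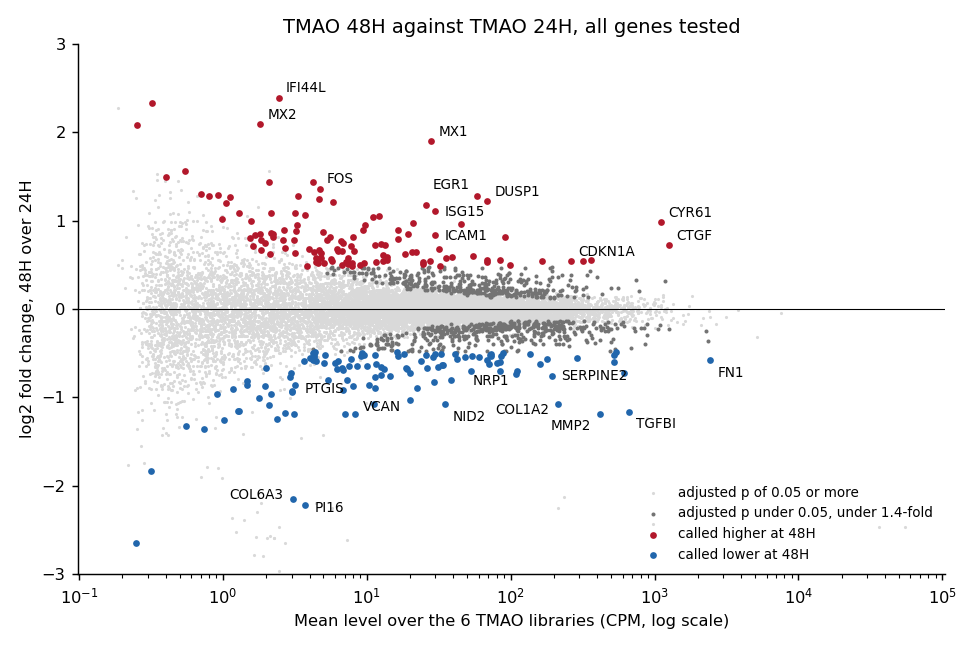
Each point is 1 of 14559 genes, with its mean level over the 6 TMAO libraries (CPM, log scale) on the x axis and its log2 fold change (48H over 24H) on the y axis. Red and blue points are the 119 genes called higher and the 116 called lower, dark grey points passed the test with less than a 1.4-fold change, and 18 genes outside the range of -3 to 3 are not drawn.

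The 12 largest falls among called genes with a mean of at least 50 normalised counts were PI16, COL6A3, KIF26B, MYLK2, MMP2, PLVAP, PDGFRL, TBC1D3C, TGFBI, MPP4, LIMS3L and NID2, of which COL6A3, MMP2, TGFBI and NID2 belong to the matrix lists described here. The 12 largest rises were IFI44L, MX2, MX1, HERC5, BST2, FOS, GBP4, EGR1, OASL, DUSP1, IFITM1 and OAS2. Of these, KIF26B lost its call without TMAO 48H replicate 2 (adjusted p = 0.0569). MPP4 and TBC1D3C lost theirs without TMAO 24H replicate 3 (adjusted p = 0.0503 and 0.0611) or TMAO 48H replicate 2 (adjusted p = 0.0528 and 0.0521). Of 36 gene lists, the one with the greatest share of members that rose was that of interferon-induced effectors, and the one with the greatest share that fell was that of matricellular and elastic fibre proteins. Without TMAO 24H replicate 1 the latter rank passed to coagulation and fibrinolysis, with 5 of 15 against 8 of 30.

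**Figure D2:**
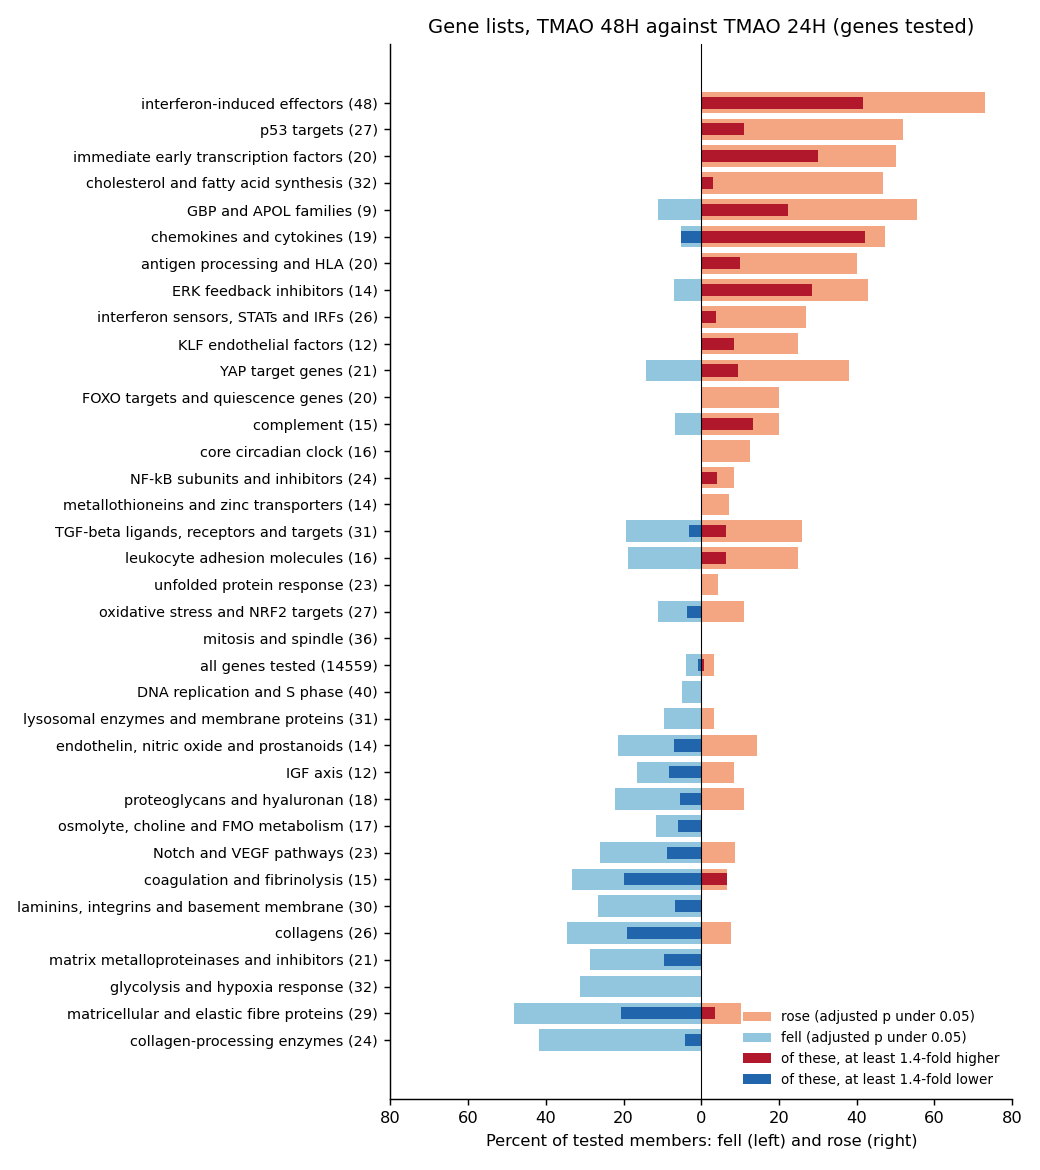
Bars give the percent of the tested members of each gene list that fell (to the left) and rose (to the right) at 48H against 24H, light for an adjusted p under 0.05 and dark for those that also changed at least 1.4-fold. The number of tested members is in brackets, the row for all 14559 genes gives the background, and the histone list, whose summed level stood apart in 1 library, is left out.

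Of 26 collagen genes tested, 9 fell and 2 rose, with 5 called lower and a median log2 fold change of -0.18, against -0.004 over all genes tested. COL1A2, which encodes the second chain of type I collagen, had 302, 268 and 294 CPM in the 3 libraries at 24H and 138, 126 and 148 CPM at 48H. Every library at 48H was far under every library at 24H, a log2 fold change of -1.07 ± 0.0632 (SE, n = 3 per group, adjusted p = 1.34e-05). Its partner chain COL1A1 fell from 633 ± 23.9 CPM to 417 ± 18.9 CPM (SD, n = 3; log2 fold change -0.60, adjusted p = 5.38e-05). COL6A3, a chain of the beaded filaments of type VI collagen, had 4.98, 5.06 and 4.90 CPM at 24H and 1.17, 1.10 and 1.07 CPM at 48H. This was a 4.45-fold lower level (log2 fold change -2.15 ± 0.14, adjusted p = 1.81e-05), with hardly any spread within either time-point. COL18A1, the basement membrane collagen from which endostatin is cut, fell from 574 ± 11.8 to 455 ± 10.4 CPM (log2 fold change -0.34, adjusted p = 0.000536). COL4A1, the main network collagen of basement membranes, was at 480 ± 13.5 CPM at 24H and 468 ± 21.2 CPM at 48H (log2 fold change -0.038, adjusted p = 0.684). COL4A1 was picked with its values known. Low-abundance collagens COL14A1 and COL16A1 were called lower (log2 fold changes -1.36 and -0.59, adjusted p = 0.0199 and 0.0329). COL14A1 lost its call without any 1 of the TMAO 24H libraries or TMAO 48H replicate 2, and COL16A1 without any 1 of the TMAO 24H libraries or TMAO 48H replicate 1 or replicate 3, with adjusted p-values of up to 0.0961 and 0.13. When TMAO 24H replicate 1 was left out, 6 collagen genes fell and 3 were called lower.

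Of 24 collagen-processing enzymes tested, 10 fell and 0 rose, with a list median of -0.16 (log2) and a single call. LOXL2, a lysyl oxidase that cross-links collagen, went from 395, 393 and 407 CPM to 327, 324 and 326 CPM (log2 fold change -0.29, adjusted p = 0.000717). P4HB, a subunit of prolyl 4-hydroxylase, fell from 636 ± 17.1 to 572 ± 7.81 CPM (log2 fold change -0.15, adjusted p = 0.0414). It passed only in the fit without TMAO 48H replicate 1 among those with 1 library left out (adjusted p up to 0.177), and not with the replicate block (adjusted p = 0.0756). The called gene was ADAMTS14, a procollagen N-propeptidase, at 2.40 ± 0.316 and 1.18 ± 0.231 CPM (adjusted p = 0.0147). It lost its call without TMAO 24H replicate 1 (adjusted p = 0.0646) or replicate 3 (adjusted p = 0.0558). In the fit without TMAO 24H replicate 1, 6 of the 24 fell and 0 were called.

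Among laminins, integrins and other basement membrane genes, 8 of 30 fell and 0 rose, with 2 called lower. NID2 (nidogen-2), which bridges laminin and type IV collagen, had 47.4, 47.1 and 48.0 CPM at 24H and 20.6, 23.5 and 23.5 CPM at 48H. The level thus fell by 1.08 on the log2 scale (SE 0.0604, adjusted p = 9.07e-06). ITGA11, the alpha chain of a collagen-binding integrin, fell from 50.3 ± 3.18 to 33.9 ± 3.25 CPM (log2 fold change -0.57, adjusted p = 0.00109), and the laminin chain LAMB1 from 770 ± 15.5 to 666 ± 20.2 CPM (log2 fold change -0.21, adjusted p = 0.0137). LAMB1 did not pass without any 1 of the TMAO 24H libraries or without TMAO 48H replicate 2, with adjusted p-values of up to 0.0795. The number that fell was 5 without TMAO 24H replicate 1.

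Of 29 matricellular and elastic fibre proteins, 14 fell and 3 rose, with 6 called lower and 1 higher. TGFBI, a secreted adhesion protein induced by TGF-beta, had 912, 899 and 948 CPM at 24H and 398, 400 and 436 CPM at 48H. It was thus 2.24-fold lower at 48H (log2 fold change -1.16 ± 0.0483, adjusted p = 1.54e-06). Together with MMP2 it had the lowest adjusted p of the named genes. LTBP1, which tethers latent TGF-beta to the matrix, fell from 136 ± 3.19 to 81.6 ± 2.76 CPM (log2 fold change -0.74). Its relative LTBP2 fell from 193 ± 11.2 to 126 ± 7.65 CPM (log2 fold change -0.62). FBN1 (fibrillin-1), the backbone of microfibrils, had 620, 610 and 627 CPM at 24H and 385, 441 and 466 CPM at 48H (log2 fold change -0.52, adjusted p = 0.000667). Without TMAO 48H replicate 1 its log2 fold change was -0.45, under the 1.4-fold limit. FBLN5 (fibulin-5), needed to assemble elastic fibres, was called lower at 9.01 ± 0.73 and 4.76 ± 0.451 CPM (adjusted p = 0.000784). FN1 (fibronectin), with 2888, 2872 and 2968 CPM at 24H and 1775, 1926 and 2143 CPM at 48H, was called lower as well (log2 fold change -0.58, adjusted p = 0.000856) and was picked with its values known. The only call higher within this list was MATN2 (matrilin-2), which rose from 14.5 ± 0.661 to 22.3 ± 1.64 CPM (log2 fold change 0.62, adjusted p = 0.000699). The matricellular proteins CTGF and CYR61 were not in this list but among the YAP targets given below. Both were called higher (log2 fold changes 0.72 and 0.98). Leaving out TMAO 24H replicate 1 gave 8 members that fell, with 6 called lower.

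Of 21 matrix metalloproteinases and their inhibitors, 6 fell and 0 rose, with 2 called lower. MMP2 (gelatinase A), which degrades type IV collagen and denatured collagen and which the study followed by RT-qPCR, had 559, 557 and 615 CPM at 24H and 244, 258 and 258 CPM at 48H. The groups lay far apart, at 2.28-fold (log2 fold change -1.19 ± 0.0486, adjusted p = 1.54e-06). MMP14, the membrane enzyme that activates pro-MMP2, fell from 489 ± 7.91 to 411 ± 6.11 CPM, and TIMP2, the inhibitor that takes part in that activation, from 901 ± 38.3 to 779 ± 18.9 CPM (adjusted p = 0.00235 and 0.0214). TIMP2 did not pass without any 1 of the TMAO 24H libraries or without TMAO 48H replicate 2, with adjusted p-values of up to 0.111. TIMP4 was scarce, with 1.02, 0.795 and 0.580 CPM at 24H and 0.377, 0.311 and 0.259 CPM at 48H (adjusted p = 0.0497). Its call was lost whichever library was left out, with adjusted p-values of up to 0.182. Without TMAO 24H replicate 1, 3 of the 22 members then tested fell and 1 was called. Among proteoglycans and hyaluronan genes, 4 of 18 fell and 2 rose, or 3 and 0 of 19 without the same library. VCAN (versican), a large hyaluronan-binding proteoglycan, had 28.5, 25 and 27.3 CPM at 24H and 12.3, 12.9 and 14.5 CPM at 48H (log2 fold change -1.03, adjusted p = 5.83e-05). The small proteoglycan BGN (biglycan) fell by 0.44 on the log2 scale, with 791 ± 40.2 CPM at 24H (adjusted p = 0.0032).

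**Figure D3:**
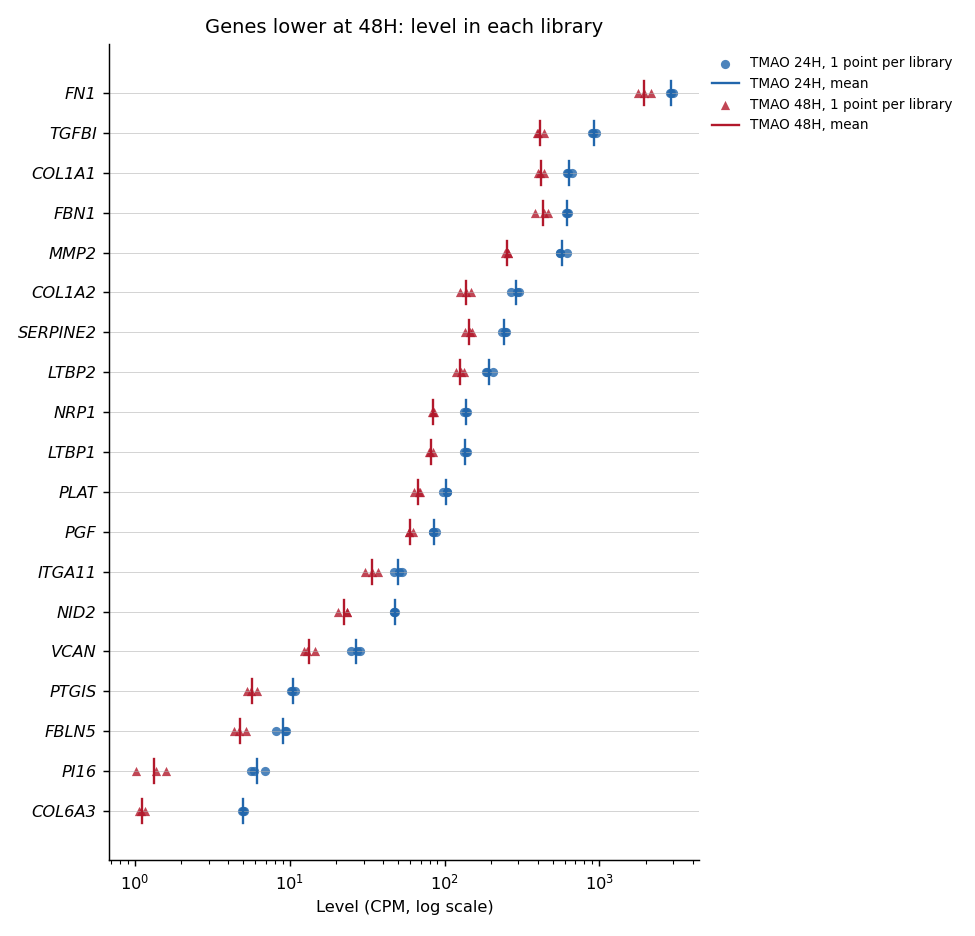
Levels of 19 genes called lower at 48H in each TMAO library (CPM, log scale on the x axis), with circles for 24H, triangles for 48H and bars for the mean of 3 libraries. No triangle reaches a circle of the same gene, from FN1 at 1775 to 2968 CPM down to COL6A3 at 1.07 to 5.06 CPM.

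Several of these genes also mark fibroblasts, and the summed level of the 8 fibroblast markers tested was 981 to 1056 CPM at 24H and 633 to 684 CPM at 48H. Most of that sum was COL1A1 and COL1A2, with means of 633 and 288 CPM at 24H and 417 and 137 CPM at 48H. COL3A1, PDGFRB and S100A4 did not pass the test (adjusted p = 0.818, 0.373 and 0.638). Of these 8 markers 4 fell (COL1A1, COL1A2, FAP and PI16) and THY1 rose (though not without TMAO 24H replicate 2 or replicate 3, adjusted p = 0.0518 and 0.0524), while DCN, LUM, PDGFRA and DPT had at most 12 counts in any library. The summed endothelial markers were 3614 to 3831 CPM at 24H and 3301 to 3529 CPM at 48H, with 10 of 20 lower and 2 higher. Of 7 smooth muscle and pericyte markers tested, ACTA2 and TAGLN rose (log2 fold changes 0.54 and 0.46, adjusted p = 0.0216 and 0.000627) and 0 fell, and their summed level was 135 to 139 CPM at 24H and 165 to 176 CPM at 48H. ACTA2 did not pass without any 1 of the TMAO 24H libraries or without TMAO 48H replicate 2 (adjusted p up to 0.105). The part of these marker changes in the results was not tested. In RNA from a whole culture, fewer cells of a type and less RNA per cell cannot be told apart. PI16, a secreted peptidase inhibitor found in fibroblasts of many tissues, had the largest fall of all named genes, from 6.91, 5.62 and 5.91 CPM to 1.58, 1.02 and 1.37 CPM (log2 fold change -2.22 ± 0.179, adjusted p = 7.10e-05). PLVAP, which forms the diaphragms of endothelial fenestrae and caveolae, fell from 4.34 ± 0.179 to 1.90 ± 0.315 CPM (log2 fold change -1.19, adjusted p = 0.00127).

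The TGF-beta family, which drives matrix synthesis in many cells, did not move as a block. Of 31 ligands, receptors and targets, 8 rose and 6 fell, with a median log2 fold change of 0.012. TGFB1, a further RT-qPCR gene of the study, had 189, 189 and 208 CPM at 24H and 163, 160 and 172 CPM at 48H (log2 fold change -0.24, adjusted p = 0.0131). It did not pass without TMAO 24H replicate 3 or TMAO 48H replicate 2 (adjusted p = 0.0625 and 0.0744). Its receptor TGFBR2 fell from 476 ± 9.25 to 424 ± 3.86 CPM (adjusted p = 0.0196), but not without any 1 of the TMAO 24H libraries or without TMAO 48H replicate 2 (adjusted p = 0.0579 to 0.107). Among the targets, ID2, a BMP-responsive inhibitor of basic helix-loop-helix factors, was called higher at 5.18 ± 0.456 and 8.19 ± 1.08 CPM (adjusted p = 0.0099). GDF15, a stress-induced member of the family, rose from 43.7 ± 1.41 to 66.2 ± 5.27 CPM (adjusted p = 0.000237).

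Genes of coagulation and fibrinolysis fell in 5 of 15 cases and rose in 1. PLAT (tissue plasminogen activator), which endothelium releases to dissolve clots, had 103, 97.8 and 104 CPM at 24H and 68.2, 63.3 and 69.7 CPM at 48H (log2 fold change -0.60, adjusted p = 6.37e-05). SERPINE2 (protease nexin-1), an inhibitor of thrombin and of plasminogen activators, fell from 244 ± 7.98 to 144 ± 7.33 CPM (log2 fold change -0.76, adjusted p = 1.40e-05). VWF (von Willebrand factor), which tethers platelets, went the other way, from 85.0, 76.0 and 85.2 CPM to 104, 116 and 128 CPM (log2 fold change 0.50, adjusted p = 0.00213). The change was 0.45 on the log2 scale without TMAO 24H replicate 2 and 0.42 without TMAO 48H replicate 3, under the limit for a call.

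Vessel tone and growth genes changed singly. Of 14 endothelin, nitric oxide and prostanoid genes, 3 fell and 2 rose. PTGIS, which makes the vasodilator prostacyclin, had 10.3, 10.2 and 10.9 CPM at 24H and 5.62, 6.17 and 5.29 CPM at 48H and was called lower (log2 fold change -0.87, adjusted p = 0.000451). EDN1, which encodes the vasoconstrictor endothelin-1, rose from 157 ± 13.0 to 219 ± 19.1 CPM (log2 fold change 0.47, adjusted p = 0.00257), just under the 1.4-fold limit, while ECE1, the enzyme that cuts its precursor, fell from 793 ± 26.9 to 669 ± 12.8 CPM (adjusted p = 0.00629). CAV1, the coat protein of caveolae that binds nitric oxide synthase, fell from 975 ± 26.9 to 743 ± 28.1 CPM (adjusted p = 0.000576). In the Notch and VEGF pathways 6 of 23 genes fell and 2 rose. NRP1 (neuropilin-1), a co-receptor of VEGF, had 138, 133 and 140 CPM at 24H and 82.5, 85.7 and 83.6 CPM at 48H (log2 fold change -0.70, adjusted p = 8.12e-06). The VEGF family ligand PGF fell from 85.4 ± 1.87 to 60.0 ± 1.79 CPM (log2 fold change -0.51, adjusted p = 7.16e-05), and NOTCH2 was at 240 ± 5.06 and 261 ± 14.9 CPM (adjusted p = 0.152). In the IGF axis 2 of 12 genes fell and 1 rose, or 1 and 0 without TMAO 24H replicate 1, and the single call was IGFBP6, a binding protein with a preference for IGF-II, at 82.0 ± 1.51 and 54.8 ± 5.50 CPM (adjusted p = 0.000471).

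Of 48 interferon-induced effectors tested, 35 rose and 0 fell, 20 were called higher, and the median log2 fold change was 0.45. These proteins block viral entry, translation and replication, or tag proteins with ISG15, and their promoters commonly hold an interferon-stimulated response element (ISRE), bound by complexes of STAT and IRF factors. For the ISRE, a pair of GAAA tracts with 2 bases of any kind between them was searched on both strands in the 250 bases before the start of RefSeq genes (GRCh38.p14). This pattern occurred in 3.02% of 35116 such windows, as a match of letters and not as a site shown to be bound. RefSeq windows were matched for 38 of the 48 effectors, fewer than 80%, so no share is given for the list. Windows of 5 genes called higher are shown, on the strand of the gene, because they hold the pattern searched, which is in capitals (read as TTTC tracts where the match is on the opposite strand).
ISG15, chr1:1013359-1013424, plus strand: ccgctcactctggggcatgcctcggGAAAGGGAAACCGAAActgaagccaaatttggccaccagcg
IFI44L, chr1:78620259-78620409, plus strand: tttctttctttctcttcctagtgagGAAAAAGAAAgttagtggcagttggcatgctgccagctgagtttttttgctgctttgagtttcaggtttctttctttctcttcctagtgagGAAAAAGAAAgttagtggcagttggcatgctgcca
BST2, chr19:17405720-17405785, minus strand: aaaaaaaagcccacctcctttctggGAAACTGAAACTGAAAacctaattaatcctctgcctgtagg
HERC5, chr4:88456969-88457079, plus strand: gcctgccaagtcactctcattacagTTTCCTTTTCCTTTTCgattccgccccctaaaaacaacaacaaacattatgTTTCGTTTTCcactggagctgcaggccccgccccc
EPSTI1, chr13:42992257-42992316, minus strand: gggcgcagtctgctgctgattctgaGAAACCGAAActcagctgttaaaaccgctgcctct

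In ISG15 and BST2 a pair of matches overlap in one tract, IFI44L holds the same tract in 2 copies, and HERC5 has 3 matches, of which 2 overlap. ISG15, a ubiquitin-like protein that is attached to other proteins, had 18.9, 19.8 and 18.1 CPM at 24H and 46.5, 39.2 and 36.9 CPM at 48H. It was 2.16-fold higher at 48H (log2 fold change 1.11 ± 0.0832, adjusted p = 4.63e-05). HERC5, the ligase that attaches ISG15, went from 1.12 ± 0.0781 to 3.06 ± 0.191 CPM (log2 fold change 1.44, adjusted p = 0.000542). BST2 (tetherin), which holds budding virus particles at the cell surface, went from 2.29 ± 0.291 to 6.21 ± 1.41 CPM (log2 fold change 1.44, adjusted p = 0.000905).

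MX1, a dynamin-like GTPase that traps viral nucleocapsids, had 12.7, 10.7 and 12.3 CPM at 24H and 45.9, 51.3 and 36.0 CPM at 48H. The 48H libraries differed among themselves by more than those at 24H, yet all 3 were at least at 36.0 CPM (log2 fold change 1.90 ± 0.119, adjusted p = 1.40e-05). IFI44L had the largest rise of all named genes, from 0.909, 0.648 and 0.783 CPM to 4.68, 4.47 and 3.11 CPM (log2 fold change 2.39 ± 0.214, adjusted p = 0.000126), at a low level in both groups. MX2, a relative of MX1 active against HIV-1, was at 0.694 ± 0.176 and 2.94 ± 0.709 CPM (adjusted p = 0.000878). OAS2, which makes the second messenger that activates RNase L, had 16.0, 15.8 and 15.3 CPM at 24H and 34.3, 39.5 and 33.0 CPM at 48H (log2 fold change 1.18, adjusted p = 1.40e-05). Its relative OASL went from 2.74 ± 0.234 to 6.52 ± 0.647 CPM (adjusted p = 0.000313). IFIT3, which stabilises an RNA-binding complex with IFIT1, rose from 13.8 ± 0.858 to 24.9 ± 1.13 CPM, and EPSTI1 from 11.5 ± 0.726 to 21.3 ± 1.59 CPM (log2 fold changes 0.85 and 0.89). The entry inhibitor IFITM1 rose from 3.48 ± 0.433 to 8.07 ± 1.02 CPM, and its relative IFITM3 from 229 ± 0.311 to 299 ± 9.67 CPM (log2 fold changes 1.21 and 0.38). RNF213, a large ubiquitin ligase, had 191, 196 and 195 CPM at 24H and 190, 232 and 236 CPM at 48H, with 1 library at 48H below and 2 above all those at 24H (adjusted p = 0.167). Without TMAO 24H replicate 1, 31 of the 48 rose and 19 were called, and without TMAO 48H replicate 3, 35 rose and 20 were called.

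The upstream layer of the interferon system moved less. Of 26 sensors, STATs and IRFs, 7 rose and 0 fell, with 1 called. That gene was IFIH1 (MDA5), a cytoplasmic sensor of long double-stranded RNA, with 7.96, 7.10 and 8.61 CPM at 24H and 16.0, 16.4 and 16.5 CPM at 48H (log2 fold change 1.05, adjusted p = 8.01e-05). In the GBP and APOL families, which act against intracellular pathogens, 5 of 9 rose and 1 fell, and GBP4 was at 1.95 ± 0.0557 and 4.75 ± 0.42 CPM (log2 fold change 1.28, adjusted p = 0.000367). APOL1 was called higher (log2 fold change 0.51, adjusted p = 0.0142), with an adjusted p of 0.0776 without TMAO 24H replicate 3 and 0.0728 without TMAO 48H replicate 2. APOL3 fell from 106 ± 0.85 to 96.0 ± 1.07 CPM (adjusted p = 0.0432). APOL3 passed only without TMAO 48H replicate 1 when 1 library was left out (adjusted p up to 0.199 otherwise), and not with the replicate block (adjusted p = 0.0793).

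In antigen processing, 8 of 20 genes rose and 0 fell. HLA-B, a heavy chain of MHC class I, had 260, 262 and 258 CPM at 24H and 393, 374 and 367 CPM at 48H (log2 fold change 0.54 ± 0.0381, adjusted p = 3.06e-05). HLA-F was called as well, at 11.1 ± 0.451 and 16.6 ± 0.494 CPM, while B2M, the shared light chain, rose from 1056 ± 54.6 to 1323 ± 173 CPM (adjusted p = 0.000766 and 0.041). B2M did not pass without any 1 of the TMAO 24H libraries or without TMAO 48H replicate 2, with adjusted p-values of up to 0.172. HLA genes are so alike that reads can be shared between them. In the fit without TMAO 24H replicate 1, 5 of the 20 rose.

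**Figure D4:**
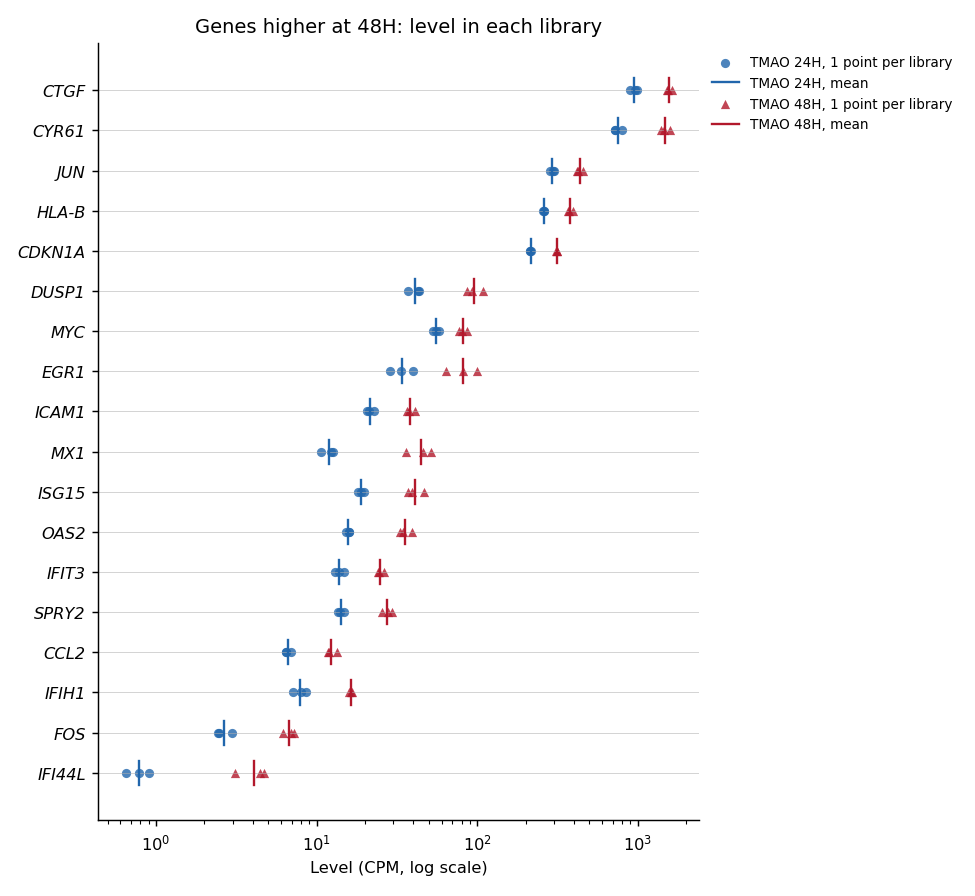
Levels of 18 genes called higher at 48H in each TMAO library (CPM, log scale on the x axis), with circles for 24H, triangles for 48H and bars for the mean of 3 libraries. The triangles lie to the right of the circles in every gene, from CTGF at 898 to 1635 CPM down to IFI44L at 0.648 to 4.68 CPM.

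Immediate early transcription factors, which serum, growth factors and stress induce without new protein synthesis, formed the next group. Of 20 tested, 10 rose and 0 fell, 6 were called higher, and the median log2 fold change was 0.35. FOS, a subunit of AP-1, had 2.47, 2.44 and 2.99 CPM at 24H and 6.15, 6.96 and 7.18 CPM at 48H (log2 fold change 1.36 ± 0.132, adjusted p = 0.000201). EGR1, a zinc finger factor induced through serum response elements, had 39.9, 28.5 and 33.3 CPM at 24H and 63.8, 82.0 and 100 CPM at 48H. The 3 libraries at 48H spread widely, and the groups still did not overlap (log2 fold change 1.28 ± 0.153, adjusted p = 0.000697). JUN rose from 293 ± 8.66 to 433 ± 17.9 CPM and MYC from 55.7 ± 2.51 to 81.7 ± 4.66 CPM (log2 fold changes 0.56 and 0.55). ATF3 and the orphan receptor NR4A1 were called too, with log2 fold changes of 0.66 and 0.95. The CArG box, the core of the serum response element, occurred in 1.16% of the RefSeq windows. It occurred 2 times in that of EGR1, shown in capitals, and was not found in that of FOS. Only the 250 bases before the start were searched, so a CArG box of FOS further upstream would have been missed.
EGR1, chr5:138465349-138465430, plus strand: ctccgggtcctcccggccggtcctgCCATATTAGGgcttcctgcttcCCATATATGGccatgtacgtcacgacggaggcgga

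Feedback inhibitors of the ERK cascade, which these same signals induce, rose in 6 of 14 cases and fell in 1. DUSP1, a phosphatase that switches off MAP kinases, had 42.8, 37 and 43.4 CPM at 24H and 93.4, 86.1 and 108 CPM at 48H (log2 fold change 1.22 ± 0.0841, adjusted p = 2.57e-05). SPRY2 (Sprouty-2), which damps receptor tyrosine kinase signals, rose from 14.8, 13.5 and 14 CPM to 27.9, 25.6 and 29.3 CPM (log2 fold change 0.97, adjusted p = 3.83e-05). DUSP5, a nuclear ERK phosphatase, rose from 31.2 ± 2.25 to 47.1 ± 5.67 CPM, while SPRED1 was at 52.2 ± 1.64 and 54.0 ± 2.09 CPM (adjusted p = 0.00196 and 0.627). DUSP8 was called at a log2 fold change of 0.49, and lost its call without TMAO 24H replicate 1 (0.44), TMAO 24H replicate 2 (adjusted p = 0.052) or TMAO 48H replicate 2 (adjusted p = 0.0646).

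Among targets of YAP, the coactivator that responds to cell spreading and density, 8 of 21 rose and 3 fell, and the list median was 0.063. The calls were its 2 best known members, both also serum-responsive. CYR61 had 795, 725 and 724 CPM at 24H and 1458, 1384 and 1588 CPM at 48H (log2 fold change 0.98 ± 0.0617, adjusted p = 1.41e-05). CTGF, an RT-qPCR gene of the study that encodes a matricellular protein known to promote fibrosis, had 957, 898 and 990 CPM at 24H and 1511, 1545 and 1635 CPM at 48H (log2 fold change 0.72 ± 0.0537, adjusted p = 4.58e-05). CRIM1 rose from 728 ± 6.94 to 837 ± 21.9 CPM (log2 fold change 0.20, adjusted p = 0.0146), but not without any 1 of the TMAO 24H libraries (adjusted p up to 0.0835).

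Chemokines and cytokines rose in 9 of 19 cases and fell in 1, with 8 called higher and 1 lower. CCL2, the main attractant of monocytes, had 6.44, 6.45 and 6.96 CPM at 24H and 11.8, 11.9 and 13.3 CPM at 48H (log2 fold change 0.90 ± 0.0893, adjusted p = 0.000238). IL6 was near the lower end of what these libraries resolve, with 1.24, 1.3 and 1.57 CPM at 24H and 3.06, 2.15 and 3.59 CPM at 48H (log2 fold change 1.09 ± 0.217, adjusted p = 0.0137). The call was lost without TMAO 24H replicate 1 (adjusted p = 0.0605) or without TMAO 24H replicate 2 (adjusted p = 0.0681). CXCL12, which attracts leukocytes and progenitor cells through CXCR4, was the exception and fell from 97.6 ± 4.32 to 64.0 ± 5.35 CPM (log2 fold change -0.61, adjusted p = 0.000252). CCL5, CXCL16 and IL15 were called higher at log2 fold changes of 1.09, 0.52 and 0.78, and IL1B, at 1.17 ± 0.123 and 1.29 ± 0.135 CPM, did not pass the test (adjusted p = 0.738). Without TMAO 24H replicate 1, 4 of 20 rose and 2 were called higher, and without TMAO 48H replicate 3, 8 rose and 7 were called higher. CCL5, CXCL16 and IL15 each lost the call without TMAO 48H replicate 2 (adjusted p = 0.072, 0.0782 and 0.0577). CCL5 also lost it without TMAO 24H replicate 1 or replicate 3 (adjusted p = 0.0627 and 0.0883), CXCL16 without TMAO 24H replicate 1 (log2 fold change 0.47) or replicate 2 (adjusted p = 0.0626), and IL15 without TMAO 24H replicate 2 (adjusted p = 0.0534).

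Leukocyte adhesion molecules went both ways, with 4 of 16 higher and 3 lower, or 3 and 1 without TMAO 24H replicate 1. ICAM1, the endothelial ligand of leukocyte integrins, had 21.2, 20.5 and 22.8 CPM at 24H and 36.6, 41.0 and 37.4 CPM at 48H (log2 fold change 0.84 ± 0.0642, adjusted p = 5.37e-05). It was the only member called. MCAM rose from 291 ± 9.0 to 342 ± 9.21 CPM and PODXL (podocalyxin) fell from 384 ± 10 to 296 ± 18.1 CPM (log2 fold changes 0.23 and -0.37). Of 24 NF-kB subunits and inhibitors, 2 rose and 0 fell. RELB, the subunit of the slower non-canonical branch, went from 5.12 ± 0.447 to 8.62 ± 0.958 CPM (log2 fold change 0.75, adjusted p = 0.00366), and RELA, the main subunit of the canonical branch, was at 100 ± 3.43 and 96.4 ± 4.72 CPM (adjusted p = 0.526). The kB site, to which these subunits bind, matched in 5.21% of the RefSeq windows. The windows of HLA-B and IL6 are shown with the matches in capitals, and that of ICAM1 held none within these 250 bases. Here too the pattern of letters was fixed, so variants of the kB site would have been missed.
HLA-B, chr6:31357321-31357381, minus strand: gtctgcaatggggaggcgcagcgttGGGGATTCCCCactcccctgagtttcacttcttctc
IL6, chr7:22727102-22727161, plus strand: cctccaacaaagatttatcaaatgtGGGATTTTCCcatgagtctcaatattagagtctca

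Complement genes rose in 3 of 15 cases and fell in 1. C2 and CFB, the linked genes of the classical and alternative convertases, were called higher at 1.46 ± 0.282 and 2.44 ± 0.252 CPM and at 2.47 ± 0.202 and 3.82 ± 0.592 CPM (adjusted p = 0.0456 and 0.0406). Both calls were lost on leaving out any library other than TMAO 48H replicate 3, with adjusted p-values of up to 0.178 and 0.157, and without TMAO 24H replicate 1 no complement gene passed the test. Of 12 KLF factors of endothelium 3 rose, and KLF12 was called at 3.51 ± 0.379 and 6.41 ± 0.481 CPM (adjusted p = 0.00225).

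Of 27 targets of p53 tested, 14 rose and 0 fell, 3 were called and the median log2 fold change was 0.27. CDKN1A (p21), an inhibitor of cyclin-dependent kinases, had 213, 217 and 214 CPM at 24H and 313, 315 and 311 CPM at 48H (log2 fold change 0.54 ± 0.0338, adjusted p = 1.40e-05). The libraries of each time-point were nearly equal and the groups were well apart. ZMAT3, an RNA-binding growth suppressor, had 25.7, 23.8 and 24.2 CPM at 24H and 38.6, 40.7 and 38.4 CPM at 48H (log2 fold change 0.68, adjusted p = 6.83e-05). GDF15, given above, was the other call. MDM2, which marks p53 for destruction, rose from 197 ± 10.3 to 259 ± 4.51 CPM (log2 fold change 0.39, adjusted p = 0.000472). Leaving out TMAO 24H replicate 1 left 9 of the 27 higher. Among 20 FOXO targets and quiescence genes 4 rose and 0 fell, led by CITED2 at 162 ± 4.19 and 225 ± 8.37 CPM (log2 fold change 0.48, adjusted p = 9.14e-05), and 2 rose without that library.

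Of 40 genes of DNA replication and S phase 0 rose and 2 fell (0 without TMAO 24H replicate 1), and of 36 genes of mitosis and the spindle 0 passed the test in either direction, although the same fit called 235 genes elsewhere. TOP2A, which untangles chromosomes in mitosis, was at 813 ± 13.8 and 876 ± 27.5 CPM (log2 fold change 0.11, adjusted p = 0.166), and the replicative helicase subunit MCM7 at 493 ± 13.6 and 469 ± 6.41 CPM (adjusted p = 0.299). TOP2A passed as higher under DESeq2 (adjusted p = 0.0327). Over the whole table, 1533 genes were higher and 1661 lower by an unadjusted p below 0.05. The clustered histone genes, whose messages carry no poly(A) tail, summed to 348 CPM in TMAO 24H replicate 1 and to 39.6 to 42.6 CPM in the other 5 libraries, and their median log2 fold change of -2.57 became -0.0032 without that library.

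Cholesterol and fatty acid synthesis rose in 15 of 32 genes and fell in 0, with 1 called and a list median of 0.19 (log2). ACLY, which supplies acetyl-CoA to both pathways, was at 422 ± 10.9 and 429 ± 9.78 CPM (adjusted p = 0.785). Of 32 genes of glycolysis and the hypoxia response 10 fell, 0 rose and 0 were called. ENO1 and GAPDH were at 1394 ± 21.9 and 1297 ± 10.7 CPM and at 2231 ± 19.6 and 1975 ± 44.1 CPM and did not pass (adjusted p = 0.197 and 0.0655). Both passed as lower under DESeq2 (adjusted p = 0.0247 and 6.96e-06). GAPDH, the RT-qPCR reference gene of the study, also passed with GC and length offsets (adjusted p = 0.0395). It passed as well with the ribosomal RNA genes left out (adjusted p = 0.0288). Without TMAO 24H replicate 1, 13 of the lipid genes rose and 4 of the glycolysis genes fell.

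Of 27 oxidative stress genes and NRF2 targets 3 rose and 3 fell (2 and 1 of 28 without TMAO 24H replicate 1), and the only call was NOX4, an NADPH oxidase that makes hydrogen peroxide, which fell from 16.0, 14.8 and 15.3 CPM to 10.2, 8.66 and 10.3 CPM (log2 fold change -0.66, adjusted p = 0.0013). FTH1, the ferritin heavy chain, was at 764 ± 5.32 and 828 ± 49.5 CPM (adjusted p = 0.194). Of 23 genes of the unfolded protein response 1 rose and 0 fell, and the endoplasmic reticulum chaperone HSP90B1 was at 741 ± 13.3 and 790 ± 29.5 CPM (adjusted p = 0.245). Among 17 genes of osmolyte, choline and FMO metabolism 2 fell and 0 rose. The taurine transporter SLC6A6, induced by hypertonic stress, was called at 104 ± 5.07 and 74.0 ± 7.45 CPM (log2 fold change -0.50, adjusted p = 0.00148). Its change fell to between -0.45 and -0.48, under the limit, without TMAO 24H replicate 1 or replicate 3 or without TMAO 48H replicate 1 or replicate 2. Lysosomal genes rose in 1 and fell in 3 of 31 cases, among them CTSB (cathepsin B), from 610 ± 10.8 to 446 ± 6.59 CPM (log2 fold change -0.45, adjusted p = 7.65e-05). Of 16 core clock genes 2 rose and of 14 metallothioneins and zinc transporters 1 rose, and neither list had a fall or a call. Without TMAO 24H replicate 1 no member of either list passed the test, and 1 of the osmolyte genes fell.

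The untreated controls give a point of reference for the levels, on a scale set over all 9 libraries, although their time in culture is not known. They were not tested against either group here. Among the 119 genes called higher at 48H, the control mean lay between the means of 24H and 48H and nearer to 24H in 76, nearer to 48H in 26 and below both in 17. Among the 116 called lower it lay nearer to 24H in 78, nearer to 48H in 2 and above both in 36. MMP2 was at 602, 586 and 504 CPM in the controls, beside means of 585 CPM at 24H and 258 CPM at 48H, and COL1A2 at 317, 310 and 259 CPM beside 292 and 140 CPM. MX1 was at 19.6, 18.4 and 12.7 CPM in the controls beside 12 and 45.3 CPM. FOS was at 5.54, 6.48 and 5.63 CPM in the controls beside 2.67 CPM at 24H and 6.90 CPM at 48H, and CTGF at 1430, 1438 and 1348 CPM beside 961 and 1595 CPM. VWF, EDN1, EGR1 and IL6 also had controls nearer to 48H, while those of ATF3 were nearer to 24H. DUSP1 and DUSP5 had control means of 63.1 and 38.6 CPM, only slightly nearer to 24H on a log scale. Their means were 41.6 and 31.6 CPM at 24H and 97.6 and 48.0 CPM at 48H. For CDKN1A the control mean of 213 CPM was below both, beside 218 CPM at 24H and 319 CPM at 48H.

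**Figure D5:**
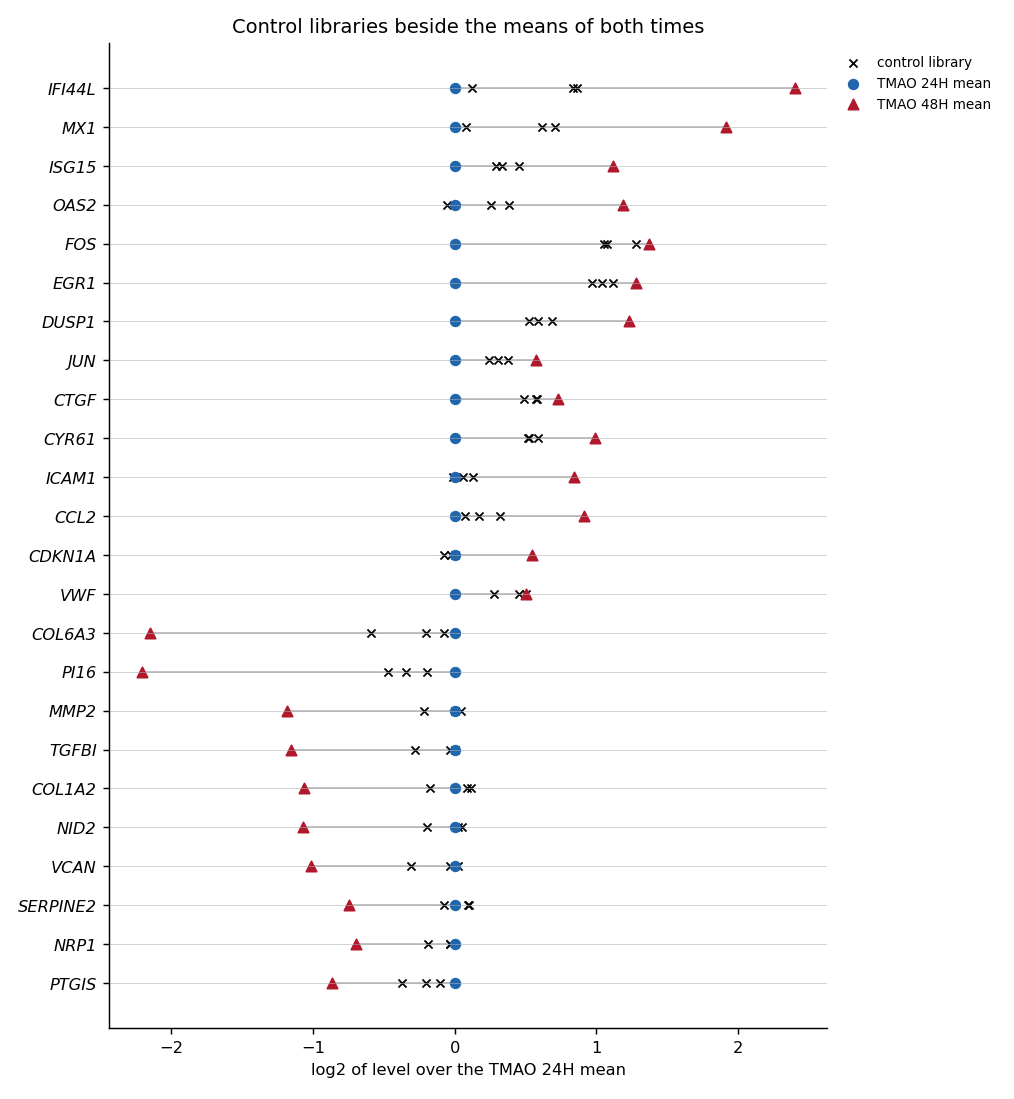
For 24 called genes, the log2 of the level over the mean at TMAO 24H is given on the x axis, with crosses for the 3 control libraries, a circle at 0 for TMAO 24H and a triangle for the mean of TMAO 48H. The crosses of COL1A2, MMP2 and ICAM1 lie close to the circle, and those of FOS, CTGF and VWF closer to the triangle.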

How the data were processed

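The authors ran the nf-core RNAseq pipeline (version 3.6) and deposited a table of estimated counts per gene for 9 libraries. The submitters' processing notes name Trim Galore. The quantifier, genome build and annotation are not given in the sources used here. The expected counts, of which some are not whole numbers, were rounded. Groups came from the sample labels. The 3 TMAO 48H and 3 TMAO 24H libraries were fitted in edgeR 4.0.16 (R 4.3.3) with filterByExpr, TMM factors and the quasi-likelihood test (glmQLFTest) on time alone, and p-values were adjusted by Benjamini-Hochberg over the 14559 genes tested. Library totals were 25205753 to 36927364 counts. Exact permutation tests are not reported, since 3 libraries per group cannot give a p under 0.1.

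The named genes were the 12 largest rises and falls among called genes whose groups did not overlap and whose mean normalised count was at least 50, up to 6 called members with the smallest p and up to 2 uncalled members with the highest mean count of each list, and the RT-qPCR genes of the study. The gene lists, the markers and the comparison itself were chosen with earlier results of these data known. The scripts were tested on simulated counts. Alternatives were DESeq2 1.42.0, RLE factors, GC and length offsets, other filters, all 9 libraries, a replicate block, other thresholds and leaving out each library. Promoter windows came from RefSeq (GRCh38.p14) and were matched by symbol, older symbols included, for 11097 of the 14559 genes. Some genes that met the rule are not reported here.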

Additional observations from a re-analysis of the deposited data

How the results depend on the processing

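The count of 235 called genes was 196 to 251 under DESeq2, RLE factors, GC and length offsets, other expression filters, the fit to all 9 libraries, the older quasi-likelihood fit and the removal of ribosomal RNA genes. GC and length offsets gave 132 genes higher and 105 lower. The common coefficient of variation between replicates in the fit was 0.286, and 0.0664 without the ribosomal RNA genes. The threshold mattered more. A test against a 1.4-fold change itself called 47 genes, 26 higher and 21 lower, and dropping the fold limit gave 1061, 486 higher and 575 lower. Leaving out 1 library at a time gave 161 to 255 calls, 83 to 126 higher and 78 to 134 lower, and 122 of the 235 were called in all 6 of these fits. The labels give both groups replicate numbers, and a fit with the replicate block called 203 genes, 199 of them among the 235. Among the named genes it lost the calls of C2, CFB and TIMP4, and APOL3 and P4HB no longer passed. The numbers were not treated as pairs, since the deviations of same-numbered libraries had correlations of 0.00929, -0.115 and -0.0406 and not every library correlated best with its own number. None of the genes that the rule calls or the text compares changed direction in these settings. KRT5, EPCAM, RN7SK, CLDN5 and the other genes given by level alone are not counted. The direction of COL3A1, PDGFRB and S100A4 was not checked in these settings, and they are not counted either. For the 83 called genes that the rule or the text names, 1193 of 1323 values kept their call and 130 lost it. For the 23 that passed under 1.4-fold, 67 of 368 no longer passed. For the 13 that had not passed, 10 of 207 values did pass. Depth limits genes near 1 CPM, among them TIMP4 and C2.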

Other observations

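Certain genes of epithelial and intestinal type, chosen after their values were seen, were at low levels in 8 of the 9 libraries. They were lower in TMAO 48H replicate 3. KRT14 was at 2.23 CPM there and at 18.2 to 35.1 CPM elsewhere. KRT6A was at 1.06 against 9.43 to 25.2 CPM, and CDH17 at 0.530 against 4.15 to 6.62 CPM. The epithelial keratins KRT18, KRT8 and KRT19 did not share this drop. In the fit of the TMAO libraries they were at 561, 45.4 and 4.7 CPM in TMAO 48H replicate 3. The other TMAO libraries had 536 to 625, 44.8 to 62.8 and 4.33 to 7.67 CPM.

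LIMS3 and LIMS3L, near-identical copies between which reads can be split, went in opposite directions, with log2 fold changes of 0.81 and -1.08. Their summed level was 19.2 ± 0.888 CPM at 24H and 14.3 ± 0.308 CPM at 48H (SD, n = 3). The readthrough gene TMEM256-PLSCR3 had 33, 38 and 46 counts at 24H and 0, 0 and 0 at 48H. It overlaps its parent genes, so how the counting shared reads between them is uncertain.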
